A study of Mus musculus with 6 samples.

Results

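The genes described here are those of the translation initiation factors of the mouse, taken as every gene in the tables whose symbol begins with Eif followed by a digit from 1 to 6. Of 66 such names, Eif4a3, which is part of the exon junction complex, and 10 names of processed pseudogenes with -ps were left out. This gave 55 genes of the 55376 in the tables. By symbol they fell into the Eif1 group (5 genes), Eif2 (7), Eif2b (5), the Eif2ak kinases (4), Eif3 (14), Eif4 (12), the Eif4ebp repressors (3), Eif5 (4) and Eif6 alone. They were measured by RIP-seq, in which RNA that comes down with a protein on antibody-coated beads is sequenced, in freshly isolated satellite cells (fiSCs), the stem cells of skeletal muscle. All 6 libraries came from C57BL/6 mice aged 3 months, with no genetic change or treatment given in the labels. The CPEB1 IP group (n = 2 libraries) was precipitated with an antibody against CPEB1 and the IgG group (n = 2) with control IgG, and the input group (n = 2) was RNA without immunoprecipitation. The labels name muscle stem cells and do not give the number or sex of the mice behind a library, so that the p-values measure the spread between these libraries only.

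Translation of most mRNAs begins when the small ribosomal subunit, loaded with the initiator tRNA by eIF2 and held by eIF3, is brought to the cap by the eIF4 factors and scans to the start codon under the control of eIF1 and eIF1A. GTP hydrolysis on eIF2, stimulated by eIF5, is followed by the joining of the large subunit with the help of eIF5B. Repression acts mainly at a pair of steps: kinases of the Eif2ak family phosphorylate eIF2 and so block its recharging by eIF2B, and the 4E-binding proteins hold the cap-binding factor eIF4E away from eIF4G. Phosphorylation of eIF2 is known for keeping translation low in quiescent satellite cells. CPEB1 binds cytoplasmic polyadenylation elements (CPEs) in the 3′ UTR of mRNAs and can either repress or promote their translation.

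Counts on genes lay between 1284716 and 4941653 per library, with the fewest in the IgG libraries. The counts on genes made up between 39.1% and 39.5% of the library total behind the deposited FPKM in IgG, and between 69.5% and 79.8% in the other libraries, so that a deposited FPKM of a gene in IgG is lowered against the other groups. For that reason the deposited FPKM (fragments scaled to exon length and library total) are used to compare genes within a library, and CPM normalised by TMM (counts scaled to library size, not to length) to compare libraries. All 11 markers of satellite cells on the list had counts, with a summed level between 10944 and 14498 CPM. The 6 fibro-adipogenic markers summed to between 879 and 954 CPM in IgG, 1138 and 1177 in CPEB1 IP, and 2075 and 2167 in input. The 6 mural markers summed to between 475 and 480 CPM in IgG, 637 and 648 in CPEB1 IP, and 1332 and 1455 in input. The 6 endothelial markers summed to between 35.0 and 43.2 CPM in input, 87.4 and 111 in IgG, and 120 and 124 in CPEB1 IP. Immune (7), myofibre (7) and Schwann cell (4) markers summed to between 24.5 and 83.9, 75.3 and 184, and 348 and 442 CPM over all libraries, and no marker on these lists was at 0 in every library. The part of these other cells in the results for the Eif genes was not tested. Only sums are given, so that a marker that satellite cells may also express is not set apart. CPEB1 IP and IgG hold RNA brought down from a lysate, so that a marker sum that differs between the groups does not measure a number of cells. Within input, fewer cells of a type and less RNA per cell cannot be told apart.

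Since CPEB1 binds CPEs, sequences around this motif are shown for 5 genes with a match in the last 200 bases of the 3′ UTR. These 5 are a selection, and the counts over the tested Eif genes are given below. CPE was taken as TTTTAT or TTTTAAT on the sense strand, where no match of one motif is also a match of the other, in the transcript of GENCODE M21 with the longest 3′ UTR. The motif is in capitals, and each line holds 30 bases of the genome build mm10 (GRCm38), written 5′ to 3′ on the strand of the gene. Eif1ax, Eif2s1 and Eif6 were higher in CPEB1 IP than in IgG, and Eif2ak3 and Eif4g1 were not past the threshold. Both Eif6 motifs lie in a short alternative transcript that ends inside the gene, whereas the other motifs shown lie at the annotated 3′ end of their gene. Near these transcript ends, no polyadenylation signal (AATAAA or ATTAAA) was found for Eif1ax and Eif2s1. Eif6, Eif2ak3 and Eif4g1 had one 15, 21 and 16 bases from the end.
Eif1ax, chrX:159389887-159389916, plus strand, 24 bases from the transcript end: attcagtggatgTTTTATgctgcacaaata
Eif2s1, chr12:78886876-78886905, plus strand, 117 bases from the end: tttactgaaaagTTTTATatttaagagaac
Eif6, chr2:155825259-155825288, minus strand, 105 bases from the end: cttggttcaggcTTTTATgtatttacctaa
Eif6, chr2:155825229-155825258, minus strand, 75 bases from the end: aaacattttttTTTTAATcgttaagcatgg
Eif2ak3, chr6:70905104-70905133, plus strand, 124 bases from the end: aatacgtttattTTTTATttataaaaattc
Eif4g1, chr16:20692728-20692757, plus strand, 139 bases from the end: tctagggtccttTTTTATtttctgaaatca

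A CPE in the last 200 bases of the 3′ UTR was held by 9 of the 44 tested Eif genes with a 3′ UTR of that length, which is 20.5% (95% Clopper-Pearson interval 9.80 to 35.3%). Among all tested genes with such a 3′ UTR, 3037 of 10279 held one, or 29.5%. The 9 genes, with Eif6 counted by its short transcript, were Eif1a, Eif1ax, Eif1b, Eif2s1, Eif2ak3, Eif3j2, Eif4e3, Eif4g1 and Eif6. Of these, 4 rose in CPEB1 IP against IgG, with a median log2 fold change of 0.43 over the 9, and of the 35 without a CPE in this window 14 rose, with a median of 0.30. Over the whole 3′ UTR, 14 of 32 Eif genes with a CPE and 11 of 20 without one rose, with medians of 0.32 and 0.35. No test was made between these sets, and a motif match is not evidence of a binding site.

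Together the 55 genes took 1.72% of the counts on genes in each CPEB1 IP library, 1.33% and 1.36% with IgG, and 1.26% and 1.39% of input RNA. Both CPEB1 IP libraries lay above the other 4. The share of the Eif3 group was 0.358% and 0.380% in CPEB1 IP, 0.272% and 0.273% with IgG, and 0.238% and 0.262% in input RNA. The share of the Eif4ebp group, nearly all of it Eif4ebp1, was 0.0489% and 0.0528% in CPEB1 IP, 0.0390% and 0.0367% with IgG, and 0.0220% and 0.0222% in input RNA, so that here the 3 groups of libraries were in a fixed order without overlap. The Eif2ak kinases took 0.00866% and 0.00949% in CPEB1 IP and 0.00965% and 0.00890% in IgG, which overlapped, and less in input, at 0.00792% and 0.00772%.

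**Figure D1:**
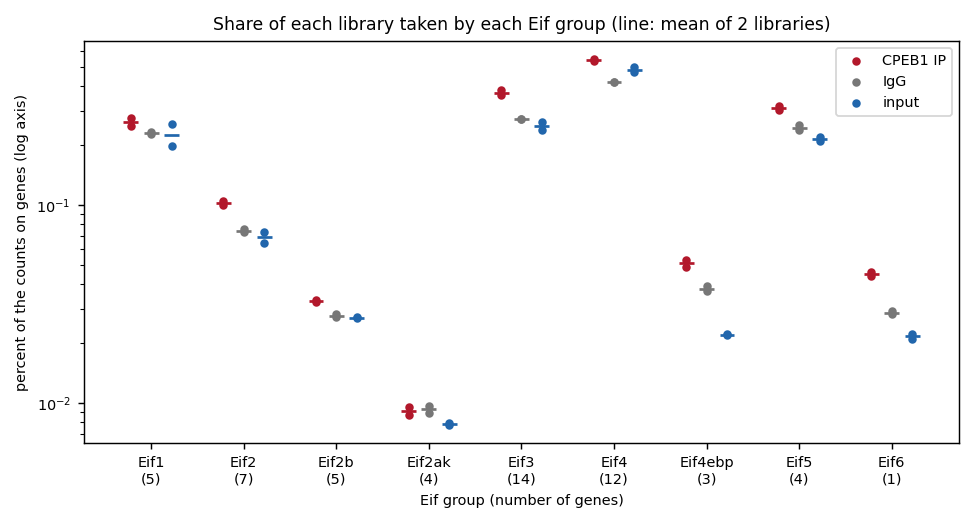
Percent of the counts on genes (log axis) taken by each Eif group, with 1 point per library and a line at the mean of 2 libraries, for CPEB1 IP, IgG and input. The points of CPEB1 IP lie above those of IgG in each group except Eif2ak, where they overlap.

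The mRNAs of the Eif genes in fiSCs spanned a wide range of levels. In input the highest were Eif1, which guards the choice of the start codon, at 368 and 525 FPKM, and Eif5a, whose product acts mainly in elongation and termination, at 389 and 466 FPKM. The helicase Eif4a1 followed at 153 and 184 FPKM and Eif1a at 102 and 153 FPKM. With 2 libraries each, the levels of Eif1 and Eif5a overlapped. The Eif2ak kinases were the lowest group, with 3.79 and 4.93 FPKM for Eif2ak1, the kinase that responds to heme deficiency, and 2.59 and 2.97 FPKM for Eif2ak4, which responds to uncharged tRNA. Eif2ak3, the kinase of endoplasmic reticulum stress, stood at 1.44 and 0.879 FPKM and Eif2ak2, the kinase of double-stranded RNA, at 1.32 and 1.22 FPKM. Eif4ebp1 (chr8:27260329-27276674, plus strand) had the highest mRNA level of the 4E-binding protein genes, at 58.6 and 64.9 FPKM against 4.58 and 6.00 FPKM for Eif4ebp2. No count fell on Eif2c5, an older name of Argonaute type that GENCODE lists as a long noncoding RNA, or on Eif4e1b, which is known from oocytes. Eif4ebp3 had 5 and 1 counts in input, 2 and 2 in IgG and 0 and 0 in CPEB1 IP, and 67.3% of its exon bases lie in another annotated gene on the same strand, so that no difference was detectable at this depth. These 3 genes were below the filter, and the remaining 52 were tested in each comparison.

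The order of the levels differed between the groups. Eif4ebp1 had rank 4 of the Eif genes by mean FPKM in CPEB1 IP and in IgG, and rank 12 in input. Eif6, whose product keeps the ribosomal subunits apart, had rank 5 in CPEB1 IP, 9 in IgG and 13 in input. Eif3b, a core subunit of eIF3, had rank 14, 20 and 29 in the same order. The opposite held for Eif1a, with rank 10 in CPEB1 IP and in IgG and rank 4 in input.

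**Figure D2:**
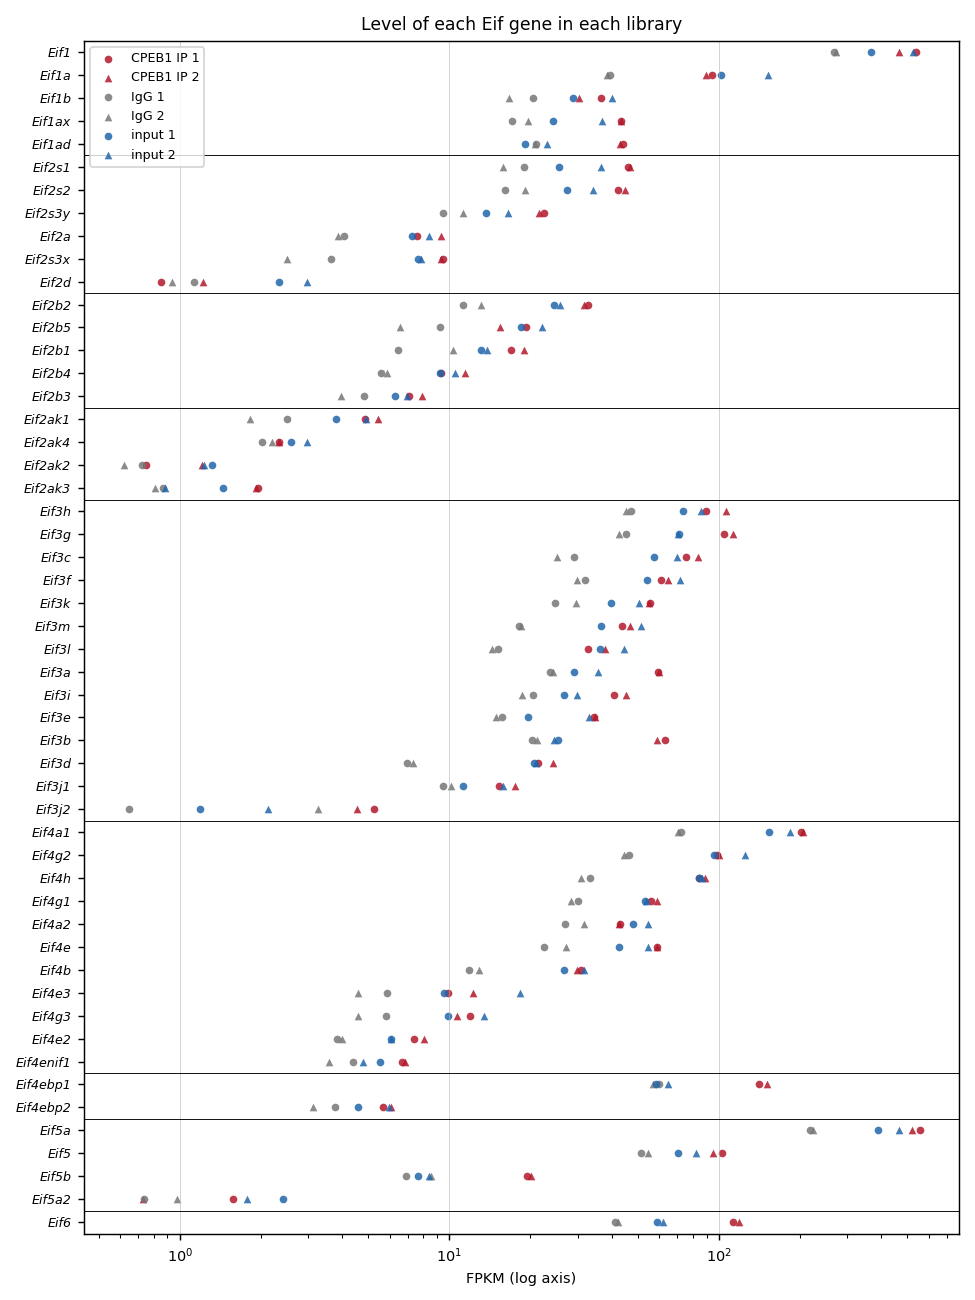
FPKM (log axis) of each Eif gene with a count in every library, ordered by group and by mean input FPKM, with circles for replicate 1 and triangles for replicate 2. Eif1, Eif5a and Eif4a1 are the highest in every library, and IgG points lie to the left for most genes because the deposited FPKM use a library total of which about 39.1% to 39.5% falls on genes in IgG.

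CPEB1 IP was compared with IgG to find which Eif mRNAs came down with the CPEB1 antibody above the control precipitate. By edgeR's quasi-likelihood test, 25 of the 52 tested Eif genes (48.1%) rose in CPEB1 IP at an adjusted p under 0.05, where 14.7% of all 12124 tested genes did. One gene fell (Eif2ak4), where 18.7% of all tested genes did, and 26 were past the threshold in neither direction. The log2 fold change was above 0 for 43 of the 52 Eif genes (82.7%) and for 49.2% of all tested genes, and its median was 0.33 and -0.01. Over all tested genes it rose with the mean FPKM in IgG (Spearman rho 0.44) and fell with exon length (-0.28), and over the Eif genes rho was 0.30 and -0.21. The Eif genes were not set against other genes of like level and length, so the part of these in the shares above was not tested. By group, the genes that rose were 2 of 5 in Eif1 (median log2 fold change 0.25), 3 of 6 in Eif2 (0.40), 1 of 5 in Eif2b (0.28), 10 of 14 in Eif3 (0.47), 5 of 11 in Eif4 (0.30), 1 of 2 in Eif4ebp, 2 of 4 in Eif5 (0.28), and Eif6. Of the 4 Eif2ak kinases, 1 fell and the others did not pass in this fit, with a median of 0.09. At an unadjusted p under 0.05, Eif2ak1 was higher and Eif2ak4 lower, and by DESeq2 neither was. Over all groups, DESeq2 called 21 Eif genes higher (7.05% of all genes) and none lower (7.98%). DESeq2 on all genes called 34 higher (6.23%) and none lower (2.34%). Differences between the groups were not tested. Scaled to the library total behind the FPKM in place of TMM, the median of all genes moved from -0.01 to 0.80, and 48 Eif genes were called higher and none lower, where 59.0% and 7.73% of all genes were. All genes called were then 88.4% higher, against 44.0% with TMM. The directions below are therefore relative to the median of all genes.

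Among the factors of the eIF4 group, which bring the cap and the small subunit together, the helicase Eif4a1 (chr11:69666936-69672423, minus strand) was at 1319 and 1280 CPM in CPEB1 IP, 764 and 762 with IgG, and 921 and 1026 in input RNA. Both CPEB1 IP libraries were above both others, with the IgG libraries lowest. Its log2 fold change over IgG was 0.70 ± 0.09 (SE, n = 2 per group, edgeR adjusted p = 1.14e-05). Of its 75-base stretches, 25.4% occur in another gene, mostly in the pseudogene Eif4a-ps4, so that the counting could split its reads. The paralog Eif4a2 was at 345 and 329 CPM in CPEB1 IP and 348 and 419 in IgG, with a log2 fold change of -0.26 ± 0.10 that was not past the threshold (adjusted p = 0.0579), and this sign turned with the library total behind the FPKM (0.55), without a filter (0.14) and with DESeq2 on all genes (0.027). Eif4b and Eif4h, which stimulate the helicase, rose: Eif4b was at 207 and 192 CPM in CPEB1 IP against 128 and 143 in IgG (log2 fold change 0.48 ± 0.12, adjusted p = 0.00297), and Eif4h at 707 and 712 against 450 and 424 (0.63 ± 0.09, adjusted p = 3.89e-05). The cap-binding Eif4e rose by 0.44 ± 0.10 on the log2 scale (adjusted p = 0.00261), and without IgG replicate 1 it was not past the threshold (adjusted p = 0.0637). Its scaffold Eif4g1 was at 617 and 621 CPM in CPEB1 IP and 530 and 515 in IgG and did not pass the threshold. Eif4g2, a scaffold that lacks the site for eIF4E, rose by 0.33 ± 0.09 (adjusted p = 0.0076), and not past the threshold without IgG replicate 2 (adjusted p = 0.0661). Eif4enif1, which carries eIF4E to the nucleus and to P-bodies, was at 63.9 and 62.7 CPM in CPEB1 IP and 68.0 and 56.6 in IgG, which overlapped.

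Of the 14 Eif3 genes, which encode the scaffold on the small subunit, 10 rose over IgG. Eif3d (chr15:77958998-77970813, minus strand), a subunit that can itself bind the cap, was at 159 and 174 CPM in CPEB1 IP, 83.7 and 91.1 with IgG, and 143 and 134 in input RNA. The IgG libraries were the low ones, and the 2 CPEB1 IP libraries lay just above input. Its log2 fold change over IgG was the largest of the genes that passed, 0.87 ± 0.13 (adjusted p = 4.47e-05), and 43.3% of its exon bases overlap the antisense gene Gm17638. Eif3b (chr5:140419328-140443360, plus strand) was at 316 and 285 CPM in CPEB1 IP, 165 and 177 with IgG, and 117 and 105 in input RNA, which were 3 separate levels. It rose by 0.74 ± 0.11 (adjusted p = 4.06e-05). Eif3a (chr19:60761117-60790658, minus strand), the largest subunit and the base of the complex, had the same order, at 783 and 755, 499 and 528, and 352 and 400 CPM, with a log2 fold change over IgG of 0.52 ± 0.09 (adjusted p = 2.25e-04). Eif3c (0.75 ± 0.10, adjusted p = 1.92e-05) and Eif3g (0.51 ± 0.10, adjusted p = 6.35e-04) also rose, and Eif3e, Eif3i, Eif3l and Eif3m rose by 0.34 to 0.50. The calls of Eif3i and Eif3l were lost without CPEB1 IP replicate 2, and that of Eif3i also with DESeq2 and without IgG replicate 2. Eif3h passed narrowly (0.29 ± 0.11, adjusted p = 0.0473), and not with the replicate number as a block (adjusted p = 0.0709), with DESeq2, in the fit of all 6 libraries, or without CPEB1 IP replicate 2 or either IgG library (adjusted p up to 0.393). Eif3f, Eif3j1, Eif3j2 and Eif3k were not past the threshold.

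In the Eif2 group, which delivers the initiator tRNA, the subunit genes Eif2s1, Eif2s2 and Eif2s3x rose, and the fourth, Eif2s3y, did not pass the threshold (log2 fold change 0.27 ± 0.13, adjusted p = 0.125), at 140 and 129 CPM in CPEB1 IP against 95.6 and 117 in IgG. Eif2s1 (chr12:78861819-78887010, plus strand), the subunit that the Eif2ak kinases phosphorylate and one of those with a CPE shown above, was at 344 and 334 CPM in CPEB1 IP, 227 and 196 with IgG, and 175 and 232 in input RNA. Both CPEB1 IP libraries were above the other 4, whose groups overlapped. Its log2 fold change over IgG was 0.62 ± 0.10 (adjusted p = 1.63e-04). Eif2s3x rose by 0.81 ± 0.21 (adjusted p = 0.00575), which was lost with DESeq2 and without IgG replicate 2 (adjusted p up to 0.065), and it shares 34.2% of its 75-base stretches with the pseudogene Gm2223. Of the eIF2B genes, which recharge eIF2 with GTP, Eif2b2 alone was called, at 93.0 and 85.7 CPM in CPEB1 IP against 51.6 and 61.7 in IgG (0.58 ± 0.16, adjusted p = 0.00678), and it lost the call without CPEB1 IP replicate 1 and with DESeq2 (adjusted p up to 0.0747). The kinase Eif2ak4 (chr2:118388618-118475234, plus strand) was at 26.2 and 25.2 CPM in CPEB1 IP, 36.6 and 40.9 with IgG, and 26.9 and 28.5 in input RNA. The IgG libraries were the high ones, while CPEB1 IP and input lay close together. Its log2 fold change over IgG was -0.66 ± 0.23 (adjusted p = 0.0287), and the call was lost with DESeq2, without a filter, in the fit of all 6 libraries, and without CPEB1 IP replicate 1, CPEB1 IP replicate 2 or IgG replicate 2 (adjusted p up to 0.598). With the library total behind the FPKM its sign turned, to 0.15.

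Eif4ebp1 was at 464 and 480 CPM in CPEB1 IP, 320 and 311 with IgG, and 179 and 183 in input RNA. The 3 groups were apart, each with its 2 libraries close together. Over IgG its log2 fold change was 0.52 ± 0.09 (adjusted p = 3.04e-04). Eif4ebp2 was at 49.2 and 50.6 CPM in CPEB1 IP and 53.0 and 45.2 in IgG, and its log2 fold change of -0.04 ± 0.18 (adjusted p = 0.898) became 0.77 with the library total behind the FPKM and was above 0 also without a filter, with DESeq2 on all genes, in the fit of all 6 libraries and without IgG replicate 1.

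Among the remaining groups, Eif6 (chr2:155819832-155826925, minus strand) was at 460 and 463 CPM in CPEB1 IP, 270 and 284 with IgG, and 221 and 216 in input RNA. These were again 3 separate levels, highest in CPEB1 IP. Its log2 fold change over IgG was 0.67 ± 0.10 (adjusted p = 3.46e-05). Eif5b (chr1:37998010-38055579, plus strand), the GTPase of subunit joining, was at 284 and 282 CPM in CPEB1 IP, 163 and 208 with IgG, and 104 and 105 in input RNA, with 0.54 ± 0.11 over IgG (adjusted p = 9.98e-04), and 16.8% of its exon bases overlap Rev1 on the other strand. Eif5a rose by 0.48 ± 0.09 (adjusted p = 6.19e-04), and Eif5 did not pass (0.09 ± 0.09, adjusted p = 0.497). Eif1a and Eif1ax, scanning factors that are alike as proteins, each rose by 0.43 (adjusted p = 0.00142 and 0.00314), whereas Eif1 was at 1697 and 1417 CPM in CPEB1 IP and 1364 and 1417 in IgG and was not past the threshold.

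**Figure D3:**
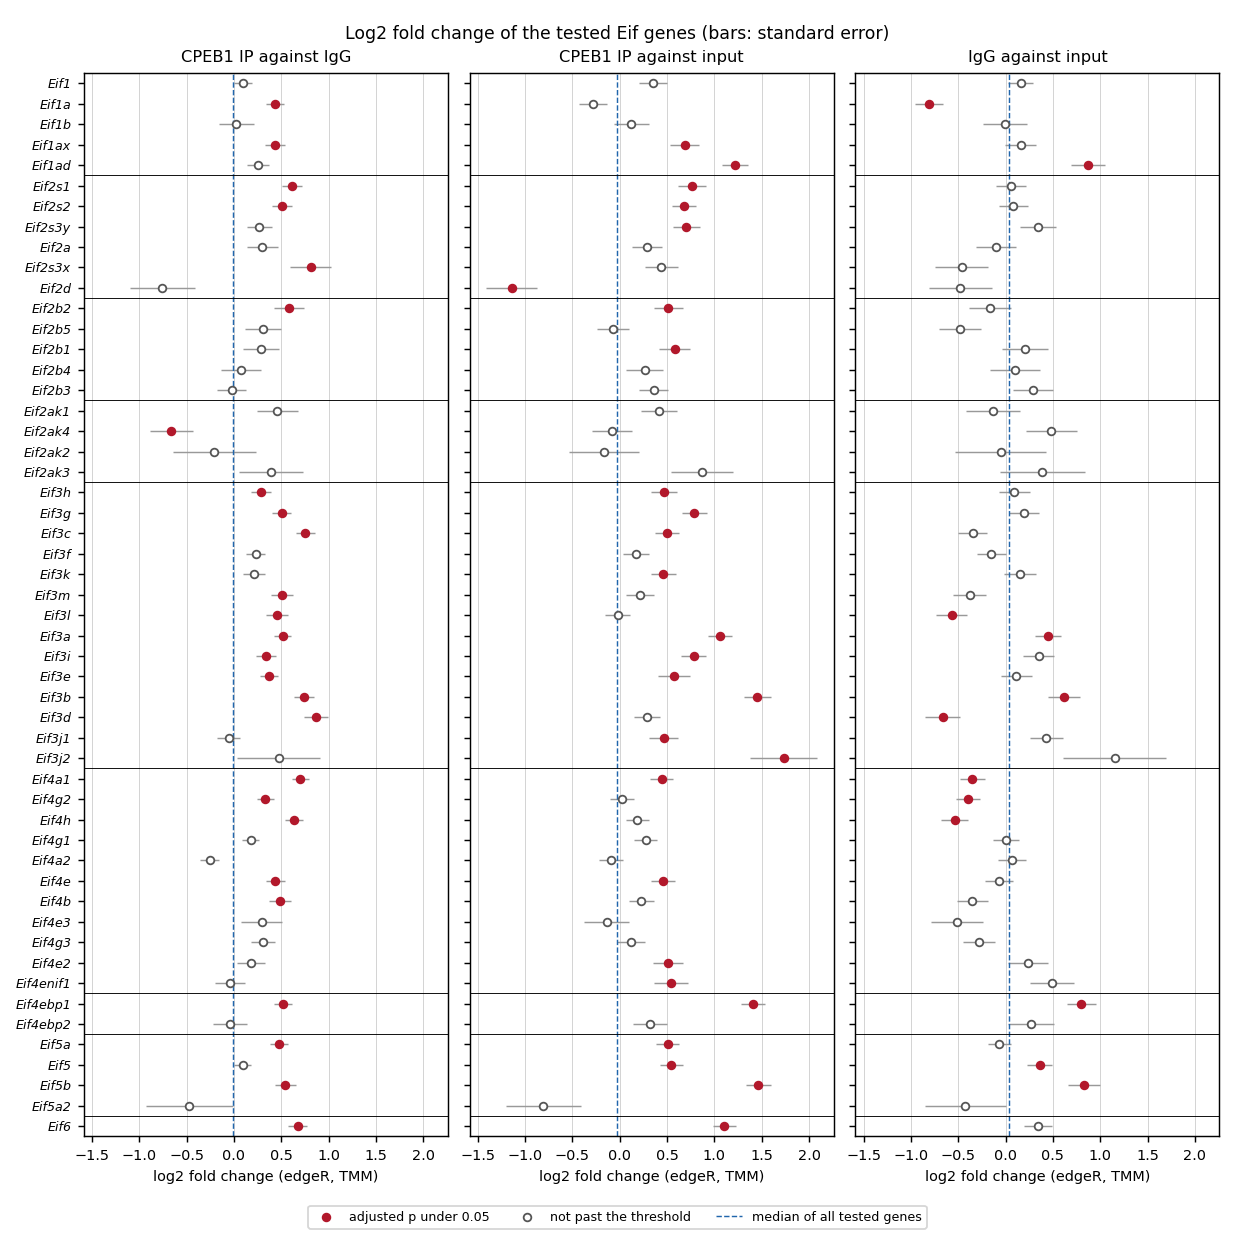
Log2 fold change (edgeR, TMM) of the 52 tested Eif genes in each of 3 comparisons, with bars for the standard error, filled points at an adjusted p under 0.05 and a dashed line at the median of all tested genes. Against IgG 25 genes are filled to the right and 1 to the left, against input 26 and 1, and for IgG against input 6 and 6.

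The study's methods call a transcript associated with CPEB1 when its FPKM ratio of CPEB1 IP over IgG is above 2 in each of the 2 experiments and a count test passes. With 1 added to each FPKM and edgeR as the count test, 23 of the 52 tested Eif genes (44.2%) met both, where 12.1% of all tested genes did. They were Eif1a, Eif1ax, Eif2s1, Eif2s2, Eif2s3x, Eif2b2, Eif3a, Eif3b, Eif3c, Eif3d, Eif3e, Eif3g, Eif3l, Eif3m, Eif4a1, Eif4b, Eif4e, Eif4g2, Eif4h, Eif4ebp1, Eif5a, Eif5b and Eif6. None of the 4 Eif2ak kinases was among them, which at a share of 12.1% does not set so few genes apart. Their FPKM were low, where adding 1 pulls a ratio towards 1. Eif2ak3, at 1.95 and 1.91 FPKM in CPEB1 IP and 0.868 and 0.811 in IgG, had ratios of 1.58 and 1.61, and it did not pass edgeR's test. The median ratio of all tested genes on the deposited FPKM was 1.45 in experiment 1 and 1.52 in experiment 2, so that much of the distance to 2 was shared by all genes. With TMM library sizes in the FPKM, or with the counts on genes, none of the Eif genes had a ratio over 2 in both experiments and passed edgeR's test, and 74 and 53 genes of the whole table did. With DESeq2 as the count test 21 Eif genes met both criteria on the deposited FPKM, and 839 genes of the whole table did. With DESeq2 on all genes, where no expression filter was set first, these numbers were 24 and 1554. With 5 added to each FPKM 16 Eif genes did, and 673 genes of the whole table.

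**Figure D4:**
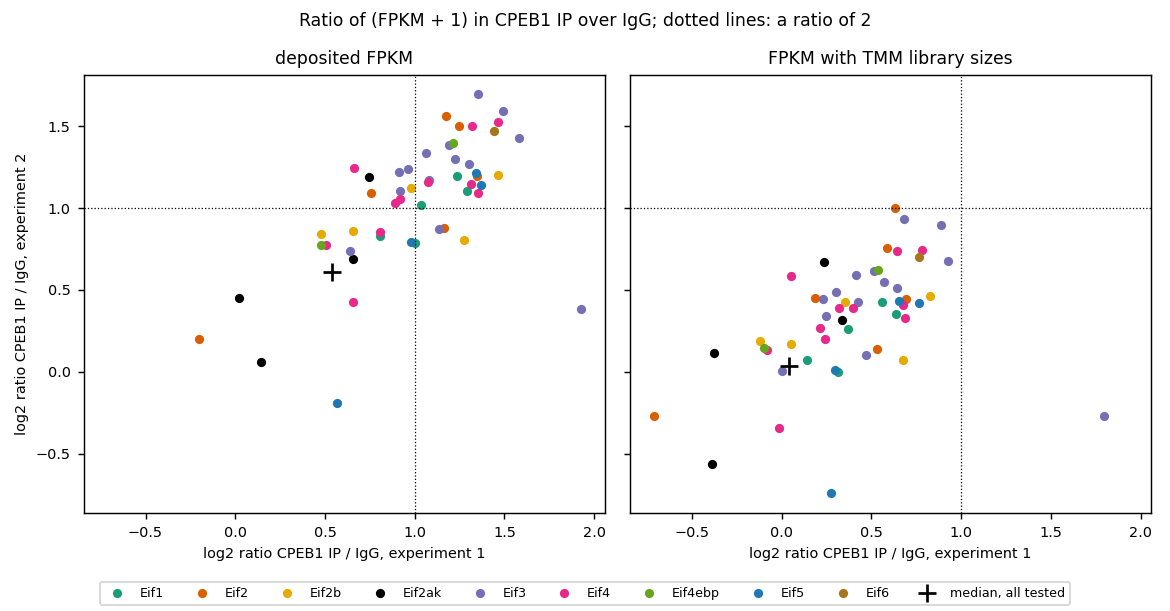
Log2 ratio between CPEB1 IP and IgG, with 1 added to each FPKM, in experiment 1 (horizontal) and experiment 2 (vertical) for the 52 tested Eif genes, coloured by group, with deposited FPKM on the left and FPKM with TMM library sizes on the right. Dotted lines mark a ratio of 2 and the cross the median of all tested genes, which lies at 0.54 and 0.61 on the left and at 0.04 and 0.04 on the right, where no Eif gene is past both lines.

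Against input, which shows the level of each mRNA in the cells before precipitation, 26 of the 52 Eif genes rose in CPEB1 IP, where 16.3% of all 12171 tested genes did, and 1 fell (Eif2d), where 16.7% of all did. The median log2 fold change was 0.45 for the Eif genes and -0.03 for all genes. The calls rested on both CPEB1 IP libraries: without CPEB1 IP replicate 1 there were 6 Eif genes higher (2.42% of all genes), and without CPEB1 IP replicate 2 edgeR called none (0.148% of all genes), although 16 were higher at an unadjusted p under 0.05. DESeq2 on all libraries called 23. In these fits the lone CPEB1 IP library is assumed to vary as the input libraries do. With the library total behind the FPKM the median of all genes moved to -0.19, and 13 Eif genes were higher (10.1% of all genes) and 2 lower (22.5%). All genes called were then 31.0% higher, against 49.3% with TMM. CPEB1 IP is common to this comparison and the one with IgG, so that the 2 lists are not independent of each other.

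Single genes of the Eif3, Eif5, Eif4ebp and Eif6 groups stood far above input, with values for each library given above. On the log2 scale, Eif5b rose by 1.46 ± 0.13 (adjusted p = 6.48e-06), Eif3b by 1.45 ± 0.14 (adjusted p = 1.03e-05), Eif4ebp1 by 1.41 ± 0.13 (adjusted p = 6.34e-06), Eif6 by 1.11 ± 0.13 (adjusted p = 3.47e-05) and Eif3a by 1.06 ± 0.13 (adjusted p = 4.70e-05). These 5 calls were lost without CPEB1 IP replicate 2, at adjusted p between 0.0574 and 0.0681. Eif1ad was at 184 and 173 CPM in CPEB1 IP, 142 and 144 with IgG, and 74.0 and 82.4 in input RNA, with a log2 fold change over input of 1.22 ± 0.14 (adjusted p = 3.98e-05, and 0.0604 without CPEB1 IP replicate 2). Of its exon bases, 15.3% overlap Banf1. Eif3j2 rose by 1.73 ± 0.35 (adjusted p = 0.00223) from 13 and 21 counts in input, but 87.4% of its 75-base stretches are also in Eif3j1, so that the value is uncertain, and the call was lost when either CPEB1 IP library was left out (adjusted p up to 0.0894).

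By group, 10 of 14 Eif3 genes, 3 of 4 Eif5 genes, 3 of 6 Eif2 genes, 2 of 5 Eif1 genes, 2 of 5 Eif2b genes and 4 of 11 Eif4 genes rose over input. With the library total behind the FPKM, 5 Eif3, 1 Eif5, 3 Eif2 and 2 Eif1 genes did, but no Eif2b or Eif4 gene. Eif4a1 (0.44 ± 0.12, adjusted p = 0.0139), Eif4e, Eif4e2 and Eif4enif1 (0.54 ± 0.18, adjusted p = 0.0305) were the Eif4 genes called with TMM. Each lost the call with that total (edgeR adjusted p between 0.142 and 0.188), and when either CPEB1 IP library was left out. Eif4e2 and Eif4enif1 also lost it with DESeq2 (adjusted p = 0.0569 and 0.0784), with DESeq2 on all genes and without input replicate 2, and Eif4enif1 without a filter. Eif2b1 was at 65.99 and 70.3 CPM in CPEB1 IP and 47.1 and 45.8 in input (0.58 ± 0.16, adjusted p = 0.0151), while its IgG libraries were far apart, at 40.3 and 66.7 CPM. Eif2s1 (0.76 ± 0.14, adjusted p = 0.00132) and Eif3g (0.79 ± 0.13, adjusted p = 5.72e-04) rose over input as they did over IgG. These 3 calls were lost as well when either CPEB1 IP library was left out, and that of Eif2b1 also without input replicate 2. The call of Eif2b1 was lost too with DESeq2 on all genes and with the library total behind the FPKM (log2 fold change 0.42, edgeR adjusted p = 0.105). Eif2d, which can deliver initiator tRNA without eIF2, was at 9.43 and 13.0 CPM in CPEB1 IP, 20.2 and 17.2 with IgG, and 23.9 and 28.2 in input RNA. The CPEB1 IP libraries were the low ones and did not overlap either other group. It fell by 1.14 ± 0.27 on the log2 scale (adjusted p = 0.00572), and not past the threshold when either CPEB1 IP library or input replicate 2 was left out (adjusted p up to 0.123). No Eif2ak kinase passed the threshold in this edgeR fit or in DESeq2, with 2 higher at an unadjusted p under 0.05 in edgeR and 1 in DESeq2, but Eif2ak3 was called higher by edgeR with RLE size factors, with the replicate number as a block and without input replicate 1. Of these kinases Eif2ak3 was the farthest from input, at 17.6 and 16.7 CPM in CPEB1 IP against 12.1 and 6.81 (0.87 ± 0.33, adjusted p = 0.0566, and 0.0258 with the replicate number as a block).

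IgG against input sets the control precipitate beside input RNA for the same genes. The IgG libraries also differed in depth and in the share of their total on genes, which cannot be told apart from the precipitation. Here 6 of the 52 Eif genes were higher in IgG, where 21.4% of all 12980 tested genes were, and 6 were lower, where 19.4% of all were, with a median log2 fold change of 0.08 against 0.03 for all genes. The genes that rose were Eif1ad (0.87 ± 0.18, adjusted p = 1.50e-04), Eif5b (0.83 ± 0.17, adjusted p = 1.71e-04), Eif4ebp1 (0.80 ± 0.15, adjusted p = 4.73e-05), Eif3b, Eif3a and Eif5, and those that fell were Eif1a (-0.81 ± 0.15, adjusted p = 2.10e-05), Eif3d, Eif3l, Eif4h, Eif4g2 and Eif4a1. Eif1a was at 400 and 401 CPM in IgG, 592 and 541 in CPEB1 IP, and 591 and 817 in input. Its IgG libraries were the low ones, and those of CPEB1 IP and input overlapped. Thus Eif5b, Eif4ebp1, Eif3a and Eif3b were above input in the IgG libraries as well. When scaled to the library total behind the FPKM, Eif3a was below input (log2 fold change -0.44, edgeR adjusted p = 0.0223). Eif5b (-0.054), Eif4ebp1 (-0.080) and Eif3b (-0.26) were then past the threshold in neither direction (adjusted p between 0.251 and 0.823). Eif3d, Eif4a1 and Eif4h were below input under both scalings. Without IgG replicate 1 or without IgG replicate 2, edgeR called none of the 52 in either direction, with between 2 and 5 at an unadjusted p under 0.05 in each direction, and of all genes at most 0.1% were called higher and 0.0847% lower in these fits. DESeq2 on all libraries called 6 higher and 5 lower, where 13.1% and 12.3% of all genes were, so that these numbers were near the share in all genes. With the library total behind the FPKM the median of all genes moved to -0.85, no Eif gene was higher (8.54% of all genes) and 43 were lower (55.3%), and 13.4% of all genes called were higher against 52.4% with TMM. With the replicate number as a block, Eif3c, Eif3j1 and Eif6 passed as well (adjusted p = 0.0418, 0.0303 and 0.0485).

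Ratios between 2 Eif genes within a library do not depend on how the libraries are scaled. The pairs were chosen after the values were seen, and with 2 libraries against 2 the exact permutation test (two-sided) cannot go below p = 0.333, so that the ratios are a description. The FPKM of Eif4a1 over that of its paralog Eif4a2 was 4.71 and 4.80 in CPEB1 IP, 2.70 and 2.24 with IgG, and 3.20 and 3.36 in input RNA. CPEB1 IP was the highest and IgG the lowest, without overlap. Eif4ebp1 over Eif4ebp2 was 24.9 and 25.0 in CPEB1 IP, 15.9 and 18.1 with IgG, and 12.8 and 10.8 in input RNA, again without overlap. Other pairs set both precipitates apart from input. Eif4ebp1 over Eif4e, the repressor over its target, was 2.39 and 2.56 in CPEB1 IP, 2.67 and 2.09 with IgG, and 1.38 and 1.19 in input RNA. Eif3a over Eif3l was 1.82 and 1.58, 1.56 and 1.69, and 0.800 and 0.800 in the same order. Eif1a over Eif1ax was 2.18 and 2.07, 2.31 and 1.97, and 4.21 and 4.14. In these 3 pairs the CPEB1 IP and IgG libraries overlapped.

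**Figure D5:**
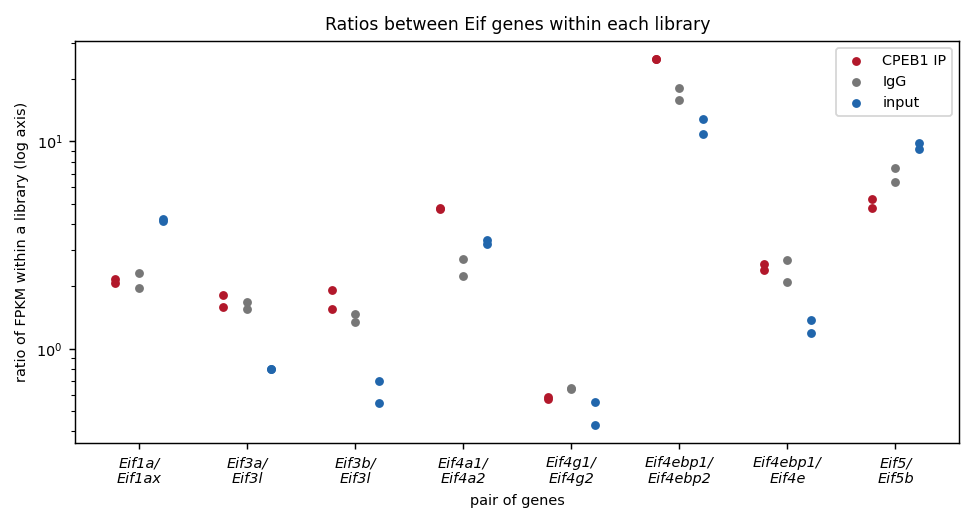
Ratio of the FPKM of a pair of Eif genes within each library (log axis), with 1 point per library for CPEB1 IP, IgG and input. For Eif4a1 over Eif4a2 the CPEB1 IP libraries, at 4.71 and 4.80, lie above all others, whereas for Eif1a over Eif1ax and Eif3a over Eif3l the CPEB1 IP and IgG libraries overlap and input stands apart.

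Other genes that act with or on the initiation factors were counted from a list of 34, of which 33 were in the tables. Of 32 tested against IgG, 8 rose (14.7% of all genes) and 1 fell (18.7% of all genes), with a median log2 fold change of 0.12. Those that rose included the helicase Ddx3x (0.58 ± 0.09, adjusted p = 8.09e-05), Abcf1 (0.57 ± 0.12, adjusted p = 8.14e-04), Ppp1r15a, which directs the dephosphorylation of eIF2 (0.47 ± 0.09, adjusted p = 4.56e-04), and Pabpc1, the poly(A)-binding protein that contacts eIF4G (0.36 ± 0.09, adjusted p = 0.0047). Gcn1l1, an activator of Eif2ak4, fell by 0.38 ± 0.11 on the log2 scale (adjusted p = 0.0127). Against input 10 of 32 rose and 6 fell, where 16.3% and 16.7% of all genes did, with a median of 0.16, so that the number that fell was near the share in all genes. Pabpc4 (0.88 ± 0.17, adjusted p = 0.00144) and Larp1 (0.85 ± 0.15, adjusted p = 0.00104) were among those that rose, and the eIF4E kinase gene Mknk1 (-1.04 ± 0.28, adjusted p = 0.0121) and Ppp1r15a (-0.36 ± 0.13, adjusted p = 0.0459) among those that fell. Atf4, whose translation rises when eIF2 is phosphorylated, was at 555 and 523 CPM in CPEB1 IP, 532 and 546 with IgG, and 511 and 633 in input RNA, with all groups overlapping. For IgG against input 1 of 33 rose and 7 fell, where 21.4% and 19.4% of all genes did.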

How the data were processed

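Reads from 6 RIP-seq libraries of fiSCs (CPEB1 IP, IgG and input, 2 each, groups and replicate numbers from the sample labels) were mapped by the authors to mm10 with HISAT and counted on genes with featureCounts. The authors deposited raw counts without normalization, and FPKM that rest on the count, the exon length and a total per library larger than its counts on genes. Strand setting and treatment of multiply mapped reads are not given in the sources used here, so overlapping and near-identical genes are uncertain. Libraries were made by SMART-Seq2, which does not mark strand.

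The count tests were run with edgeR 4.0.16 under R 4.3.3 (filterByExpr, TMM, quasi-likelihood test, Benjamini-Hochberg at 0.05 over all genes tested), 2 groups at a time. The standard error is the log2 fold change divided by the square root of F. The edgeR procedure was run on simulated counts in which a small part of the genes changed, with directions drawn at random. That setting does not probe a shift of most genes between libraries, such as the one between the scalings above. Gene ends and 3′ UTRs came from GENCODE M21. Other steps used Python 3.11.15. Precision rests on 2 libraries per group, and the interval of the CPE share covers the sampling of genes only.

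The study's methods pair CPEB1 IP and IgG by experiment. Deviations of same-numbered libraries from their group means correlated at -0.0096, 0.0047 and 0.0236 over 16680 genes (CPEB1 IP and IgG, CPEB1 IP and input, IgG and input). The replicate block was an alternative, as were DESeq2 1.42.0, RLE size factors, the library total behind the FPKM, no filter, all 6 libraries in 1 fit, other pseudocounts (0.1 and 5 in place of 1), other CPE windows and leaving out each library. DESeq2 on all genes was added after seeing the data.

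The members and gene lists were chosen with earlier results of these data known. The genes named are those the study's text names, the highest in input in each group, those with the largest rise and fall past the threshold in each group in CPEB1 IP against IgG and against input (mean FPKM over 1), and every Eif2ak and Eif4ebp gene, 27 in all. Others named in the text, among them Eif3b, Eif3c, Eif4e, Eif4h and Eif4g2, were chosen after their values were seen.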

Additional observations from a re-analysis of the deposited data

How the results depend on the processing

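With 2 libraries per group, single calls near the threshold are weak, and counts in the IgG libraries, the shallowest, limit low genes such as the Eif2ak kinases. The number of Eif genes higher in CPEB1 IP than in IgG was 25, and with the library total behind the FPKM 48 (59.0% of all genes), without a filter 38 (8.36% of all genes), and leaving out each library 24 to 26. The number lower was 1, and 0 with the library total behind the FPKM, without a filter, with DESeq2, with DESeq2 on all genes and with all 6 libraries in 1 fit, and 0 to 2 leaving out each library. In the fits with 0 lower, an unadjusted p under 0.05 was reached by at most 2 genes in that direction. Against input 26 were higher, 13 with the library total behind the FPKM (10.1% of all genes) and 0 to 27 leaving out each library. One was lower, 2 with that total (22.5% of all genes) and 0 to 2 leaving out each library. For IgG against input 6 were higher, 0 with that total (8.54% of all genes), 3 without a filter (10.3%), 3 with DESeq2 on all genes (2.51%), 10 with all 6 libraries (23.8%), and 0 to 11 leaving out each library, and 6 were lower, 43 with that total (55.3%), 12 without a filter (7.66%), and 0 to 11 leaving out each library. The 23 Eif genes that met both the FPKM ratio and the count test became 0 with TMM library sizes or counts on genes in the FPKM, and 23 to 26 leaving out each library. The share with a CPE was 36.8% over the last 500 bases, where it was 47.5% for all tested genes, and 61.5% over the whole 3′ UTR, where it was 65.3%. The cause of these changes was not tested.

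With the replicate block 24 Eif genes were higher (14.3% of all genes) and 1 lower (18.4%) in CPEB1 IP against IgG, 27 (16.2%) and 1 (17.2%) against input, and 8 (21.4%) and 7 (20.7%) in IgG against input. Beyond the genes named with the block above, it changed no other call of an Eif gene.

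The sign of the log2 fold change turned for 57 values of the named genes, of which 16 were past the threshold in one of the 2 fits compared and 41 in neither. With the library total behind the FPKM, CPEB1 IP against IgG became 0.15 for Eif2ak4, 0.55 for Eif4a2, 0.77 for Eif4ebp2, 0.77 for Eif4enif1, 0.60 for Eif2ak2 and 0.050 for Eif2d. With the same total, IgG against input became -0.73 for Eif1, -0.012 for Eif1ad, -0.68 for Eif2b1, -0.83 for Eif2s1, -0.44 for Eif3a, -0.68 for Eif3g, -0.79 for Eif3h, -0.81 for Eif4a2, -0.080 for Eif4ebp1, -0.61 for Eif4ebp2, -0.054 for Eif5b, -0.54 for Eif6, -0.47 for Eif2ak3, -0.40 for Eif2ak4 and -0.38 for Eif4enif1. The other turns were past the threshold in neither fit. Without a filter, CPEB1 IP against IgG became 0.20 for Eif2ak2, 0.14 for Eif4a2, 0.36 for Eif4ebp2 and 0.36 for Eif4enif1, and IgG against input -0.11 for Eif1, -0.067 for Eif2b1, -0.22 for Eif2s1, -0.078 for Eif3g, -0.18 for Eif3h, -0.20 for Eif4a2 and -0.0020 for Eif4ebp2. With DESeq2 on all genes, CPEB1 IP against IgG became 0.049 for Eif2ak2, 0.027 for Eif4a2, 0.24 for Eif4ebp2 and 0.24 for Eif4enif1, and IgG against input -0.087 for Eif2s1, -0.048 for Eif3h and -0.071 for Eif4a2. With all 6 libraries, CPEB1 IP against IgG became 0.026 for Eif4ebp2 and 0.024 for Eif4enif1.

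Leaving out 1 library turned 16 values of 14 log2 fold changes, none of them past the threshold in either fit. Leaving out each library, CPEB1 IP against IgG ranged from -0.025 to 0.22 for Eif1, -0.61 to 0.033 for Eif2ak2, -0.027 to 0.70 for Eif2b1, -0.26 to 2.104 for Eif3j2, -0.15 to 0.081 for Eif4ebp2 and -0.17 to 0.093 for Eif4enif1, and CPEB1 IP against input from -0.58 to 0.092 for Eif2ak2. IgG against input ranged from -0.0054 to 0.35 for Eif1, -0.35 to 0.070 for Eif2ak1, -0.18 to 0.085 for Eif2ak2, -0.20 to 0.52 for Eif2b1, -0.11 to 0.25 for Eif2s1, -0.47 to 1.89 for Eif3j2 and -0.064 to 0.20 for Eif4a2. Of the other values of named genes, 687 kept their direction and side of the threshold, 75 lost the call and 39 gained one.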
